A study of Mus musculus with 26 samples.

Results

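Kin- cells, a variant of the S49 mouse T-lymphoma line known for lacking active protein kinase A (PKA), were followed here after exposure to a cAMP analog, with all exposure times pooled. The arrays were chosen by their labels: the 9 arrays of Kin- cells given 100 µM 8-CPT-cAMP for 2, 6 or 24 h (3 arrays at each time) were set against the 4 arrays of untreated Kin- cells (0 h). These are 13 of the 26 arrays in the series, and the other 13 hold WT S49 cells in the same layout, 9 with the analog and 4 at 0 h. Total RNA was measured on arrays of 22626 probe sets. Kin- arrays are named by the numbers in their titles: 5, 14, 40 and 44 at 0 h, 6, 41 and 45 at 2 h, 7, 42 and 46 at 6 h, and 8, 43 and 47 at 24 h. Whether the arrays within a group stem from different cultures, and whether the Kin- cells are a single clone, is not stated in the labels, so the p-values reflect variation from array to array that could be purely technical. In a bulk sample, fewer cells with a transcript and less of it per cell cannot be told apart.

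In most animal cells cAMP acts mainly through PKA, which is released from its regulatory subunits when these bind cAMP and then phosphorylates substrates that include the transcription factor CREB. CREB and its relatives bind cAMP response elements (CREs) in promoters and switch on immediate-early genes. In S49 cells the PKA branch of cAMP signalling is known for stopping the cell cycle and causing cell death. A cell without PKA activity still holds other proteins that bind cyclic nucleotides, among them the Epac exchange factors for the small GTPase Rap, cyclic nucleotide gated channels and Popeye proteins, and 8-CPT-cAMP is a membrane-permeant analog that binds both PKA and Epac. The pooled comparison asks whether any transcript changed in Kin- cells by such a route.

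The deposited values have no stated scale. Their square root ran from 0.612 to 16.4, with medians between 5.40 and 5.53 in the 26 arrays, and was read as a log2-like level; that a unit is a doubling is an assumption. A change below is the difference in this level between analog and 0 h arrays, estimated with limma with a term for array number (1 to 14, or 16 to 47), and a probe set passed when its p, adjusted by Benjamini-Hochberg over all 22626 probe sets, was under 0.05. No detection calls were used, so a level near the low end may be background. The number of arrays limits the precision.

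No transcript passed in the pooled Kin- comparison. By limma 0 of 22626 probe sets passed (0%), and the smallest adjusted p was 1. At an unadjusted p under 0.05 there were 979 probe sets (4.33%), 436 of them higher (1.93%) and 543 lower (2.4%) with the analog, and the smallest unadjusted p was 7.48e-05. In the plot of p-values by bin the lowest Kin- bin, with 979 probe sets, is the least filled, and the bin from 0.85 to 0.9 holds 1303. Small p-values were thus fewer than under an even spread, so the test may be conservative in these arrays. The cause was not tested. The same fit in WT cells, also 9 arrays against 4, passed 2410 probe sets (10.7%), 1158 higher (5.12%) and 1252 lower (5.53%), with 4872 at an unadjusted p under 0.05 (21.5%), 9.81% higher and 11.7% lower. The WT count was 1311 without array 16 and 1345 without array 36, both WT 0 h arrays, and 1433 with series of consecutive array numbers as a block. Within arrays 16 to 47 alone, 0 probe sets passed in Kin- cells and 698 in WT cells. Within arrays 1 to 14 alone, 0 passed in Kin- cells and only 4 in WT cells.

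**Figure D1:**
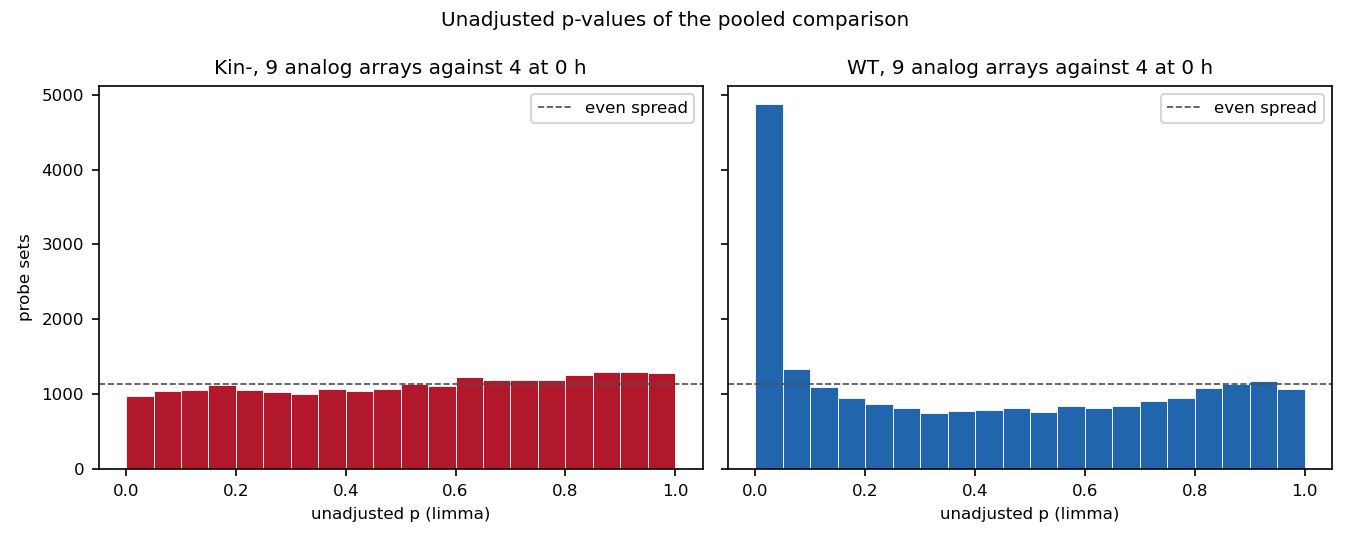
Number of probe sets (vertical axis) by unadjusted limma p of the pooled comparison of analog with 0 h arrays (horizontal axis, bins of 0.05), for Kin- cells (left) and WT cells (right); the dashed line is an even spread over the bins. The lowest bin holds 979 probe sets in Kin- cells and 4872 in WT cells.

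The intervals say how large a change the Kin- arrays leave room for. The median standard error of the pooled Kin- change was 0.0698 and the median half-width of its 95% interval 0.152 log2-like units. For 21489 probe sets (95%) the whole 95% interval lay within 0.5 units of 0, and for 22543 (99.6%) within 1 unit. From the 5th to the 95th percentile, pooled changes ran from -0.165 to 0.137 in Kin- cells, against -0.663 to 0.678 in WT cells. An estimated change of at least 1 unit in size was found for 11 probe sets in Kin- cells and for 999 in WT cells, and of at least 0.5 units for 51 in Kin- cells and 3609 in WT cells. Precision varied with level: the intervals were within 0.5 units for 98% of the lowest tercile of probe sets by Kin- level, 88.7% of the middle tercile and 98.2% of the highest tercile. It was lower for the 730 probe sets that passed in WT cells with a change of at least 1 unit. Of their Kin- intervals 81.6% lay within 0.5 units of 0 and 97.8% within 1 unit, with a median half-width of 0.219. For the 446 of them higher in WT cells, 74.9% lay within 0.5 units.

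No probe set passed at any single time. With a mean for each time, limma passed 0 of 22626 probe sets (0%) at 2 h, with 1094 at an unadjusted p under 0.05 (4.84%; 2.51% higher and 2.32% lower) and a smallest adjusted p of 0.981. At 6 h 0 passed (0%), with 1000 at an unadjusted p under 0.05 (4.42%; 2.24% higher and 2.18% lower) and a smallest adjusted p of 0.997. At 24 h 0 passed (0%), with 931 at an unadjusted p under 0.05 (4.11%; 1.61% higher and 2.51% lower) and a smallest adjusted p of 0.546. An F test of equal means at the 3 times, which pooling would hide, passed 0 probe sets (0%), with 1120 at an unadjusted p under 0.05 (4.95%) and a smallest adjusted p of 0.537. Leaving out array 8 passed a single probe set at 24 h, that of Fbxo2, a substrate receptor of SCF ubiquitin ligases. At 24 h its levels were 3.35, 2.52 and 2.63 in arrays 8, 43 and 47, and the other 10 Kin- arrays lay between 3.29 and 3.45. The low values were thus in the 24 h arrays numbered 43 and 47 and not in array 8. Its change at 24 h was -0.52 with all arrays (limma adjusted p = 1) and -0.82 without array 8 (limma adjusted p = 0.00644), and its F test gave an adjusted p of 0.988 with all arrays and 0.017 without array 8.

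Array 14, an untreated Kin- array, stood apart from the rest and weighs on every pooled change. The root mean square difference in level between pairs of Kin- arrays was 0.197 to 0.232 among arrays 5 to 8, 0.170 to 0.262 among arrays 40 to 47 and 0.285 to 0.360 between those sets. Array 14 differed from arrays 5 to 8 by 0.298 to 0.315 and from arrays 40 to 47 by 0.292 to 0.335, so it was close to neither. It exceeded every other Kin- array by more than 1 unit at 28 probe sets and lay below every other at 6, against at most 4 in each direction for any other Kin- array. Its label was checked with 17 probe sets that separate the lines by more than 2 units, with a limit of 0.5 on the standard deviation. They were chosen in the untreated arrays other than 13 and 14 (Kin- 5, 40 and 44, WT 1, 16 and 36). Array 14 was on the Kin- side in 17 of 17, and the WT 0 h array 13, which like it had no part in that choice, in 1 of 17. Without array 14, 0 probe sets passed in the pooled Kin- comparison, with 922 at an unadjusted p under 0.05. The intervals then lay within 0.5 units for 94.2% of probe sets and within 1 unit for 99.9%.

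The genes with the largest estimated changes in Kin- cells were read with and without this array. They were singled out after their values were seen, and none passed in the pooled Kin- comparison. Bex1, a small adaptor-like protein best known from neurons, had a level of 10.2 in array 14 and 2.40 in array 5, which are both 0 h arrays, and 2.46 to 2.63 in the analog arrays 6 to 8. In arrays 40 to 47 it lay at 5.23 to 6.60 with the analog and at 6.06 and 5.38 at 0 h. The groups overlapped, and the estimate was -1.57 ± 1.12 (SE; limma unadjusted p = 0.186) with array 14 and 0.16 ± 0.255 without it. The metallothionein Mt2, a metal-binding protein, had 12.75 in array 14, against 6.89 to 9.67 in the 9 analog arrays and 7.10, 9.48 and 9.20 in the other 0 h arrays. Its change was -1.30 ± 0.811 with array 14 and -0.03 ± 0.123 without it. Its paralog Mt1 gave -1.01 with array 14 and 0.01 without it. Baiap2l1 (-1.23 and 0.15), the pluripotency-associated Dppa2 (-1.17 and 0.02), Gsto1, a glutathione transferase (-1.03 and 0.04), and the inflammatory caspase Casp1 (1.02 and -0.05) followed the same course, the first value with array 14 and the second without it. Mpzl2, a cell adhesion protein, was the exception. Its levels with the analog were 2.60, 2.66 and 2.73 in arrays 6 to 8 and 3.52 to 4.75 in the other 6 arrays, and its 0 h levels were 2.60, 5.29, 4.82 and 4.97 in arrays 5, 14, 40 and 44. The change was -1.07 ± 0.373 (limma unadjusted p = 0.0138) and -0.58 ± 0.234 without array 14, and the 2 groups overlapped in arrays 5 to 8. In WT cells Mpzl2 rose by 0.57 (limma adjusted p = 0.0184), and with all arrays the Kin- minus WT difference was -1.64 (limma adjusted p = 0.0137). These values are from 1 of 3 probe sets of the gene. The count of probe sets with a change of at least 1 unit was 11 with array 14 and 0 without it, and of at least 0.5 units 51 with it and 18 without it.

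**Figure D2:**
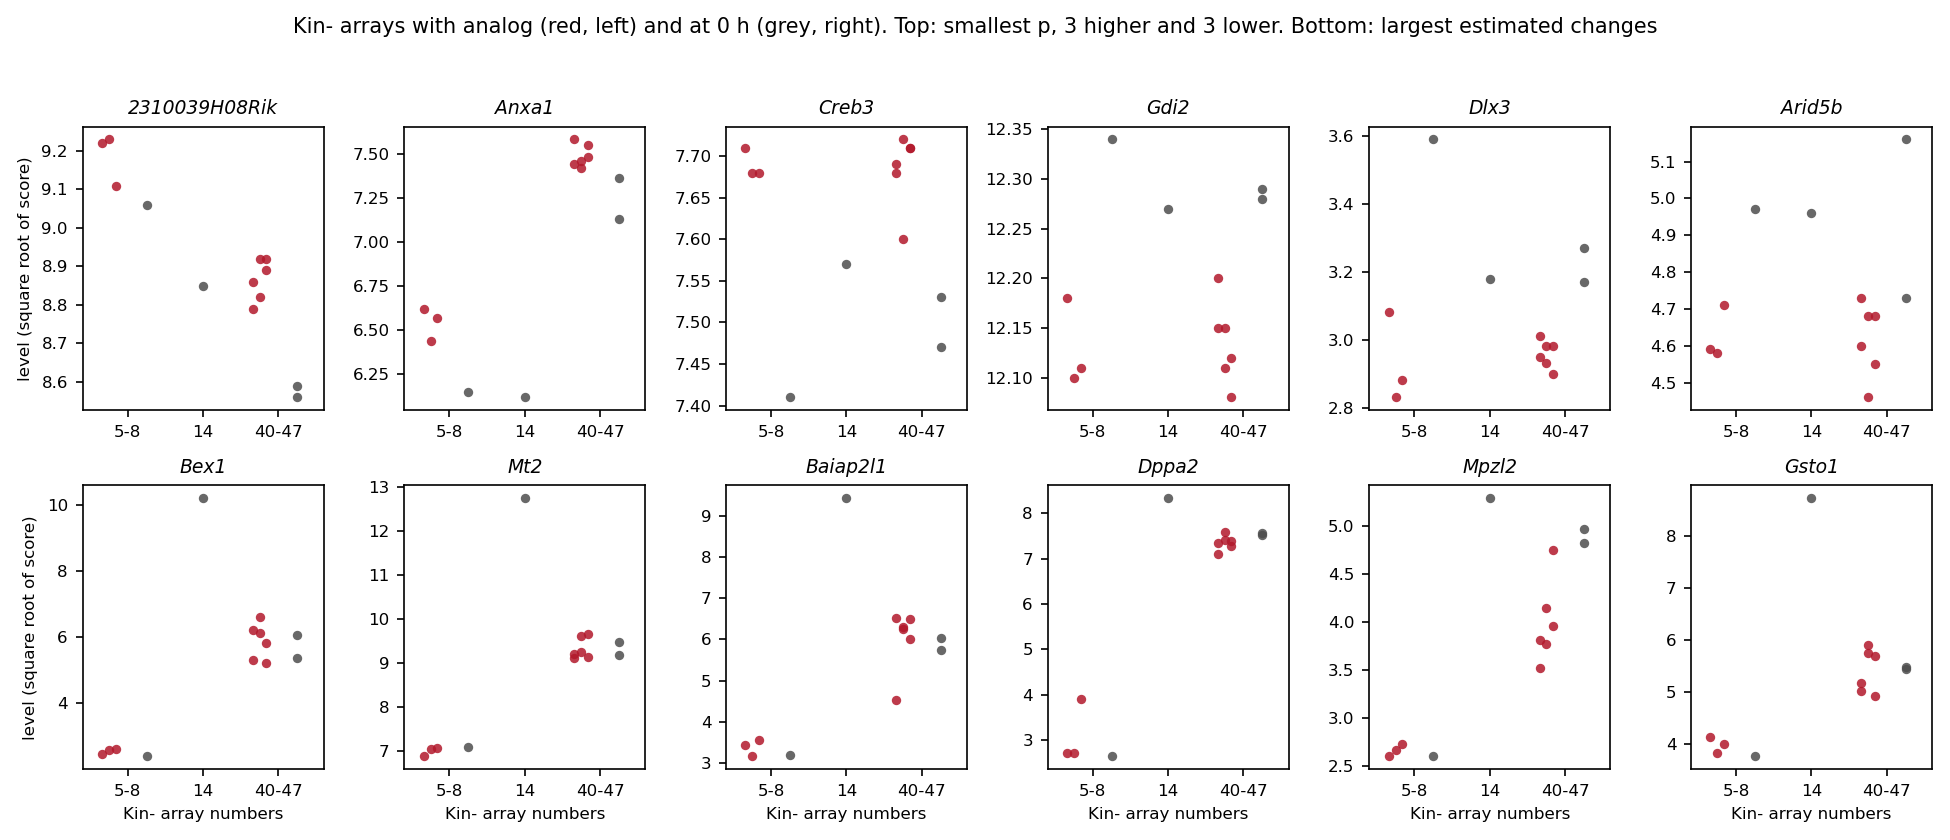
Level (square root of the deposited score, vertical axis) in each Kin- array, with arrays 5 to 8, array 14 and arrays 40 to 47 apart on the horizontal axis; red points are analog arrays and grey points 0 h arrays. The upper row has the 3 genes of smallest p in each direction, with shifts of 0.16 to 0.35 units, and in the lower row array 14 is the highest Kin- array for all 6 genes, reaching 10.2 for Bex1.

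The genes of smallest p in each direction, 10 higher and 10 lower, show what the strongest ordering in these arrays looked like. They were chosen on this contrast, so their values are a description. Their changes were between 0.16 and 0.35 units in size, the sign was the same at 2, 6 and 24 h for 20 of 20, and the adjusted p was 1 for each. The gene 2310039H08Rik had the smallest p, with levels of 8.79, 8.92 and 9.23 (lowest, median and highest) in the 9 analog arrays, against 9.06, 8.85, 8.56 and 8.59 in the 0 h arrays 5, 14, 40 and 44. The groups overlapped over all arrays and were apart within each set of array numbers. Its change was 0.27 ± 0.0459 (limma unadjusted p = 7.48e-05), while in WT cells it was -0.51 (limma adjusted p = 0.174).

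Anxa1, which encodes the phospholipid-binding annexin A1, had 6.62, 6.44 and 6.57 in the analog arrays 6 to 8, against 6.15 and 6.12 in the 0 h arrays 5 and 14. In the later set it had 7.42 to 7.58 with the analog, against 7.36 and 7.13 at 0 h. The difference between the sets of array numbers exceeded that between analog and 0 h, and the change was 0.32 ± 0.0557. Creb3, an endoplasmic reticulum anchored relative of CREB, lay at 7.60 to 7.72 with the analog, against 7.41, 7.57, 7.53 and 7.47 at 0 h, with no overlap. Its change was 0.19 ± 0.0374, and its 3 other probe sets gave 0.05, 0.15 and 0.10 with unadjusted p of 0.277, 0.185 and 0.35.

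The other 7 estimated higher were Flot2 (0.32), a lipid raft protein, Ubxn4 (0.24), which acts in the degradation of misfolded endoplasmic reticulum proteins, Ppp2r1a (0.23), the scaffold of protein phosphatase 2A, Cox7a2l (0.20), which helps to assemble respiratory supercomplexes, Tmem208 (0.18), an endoplasmic reticulum protein, Sdhaf2 (0.18), an assembly factor of succinate dehydrogenase, and Plp2 (0.16), a membrane protein.

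Gdi2, which recycles Rab GTPases, had 12.08 to 12.20 with the analog, against 12.34, 12.27, 12.28 and 12.29 at 0 h, and the groups did not overlap. Its change was -0.16 ± 0.0338, and its 5 other probe sets gave changes from -0.11 to 0.05. Dlx3, a homeobox gene, had 2.83 to 3.08 with the analog, against 3.59, 3.18, 3.27 and 3.17 at 0 h, again apart. The remaining ones estimated lower were the chromatin-associated Arid5b (-0.34), Doc2b (-0.33), a calcium sensor of exocytosis, the homeobox genes Nkx6-1 (-0.30) and Pou3f4 (-0.26), the VEGF receptor gene Flt1 (-0.19), Psme4 (-0.19), which encodes a proteasome activator, the RNA-binding Hnrnpa2b1 (-0.17) and the transporter gene Slc5a4b (-0.16).

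Analog and 0 h ranges were apart in the same direction in both sets of array numbers for 18 of these 20 genes, and for 120 of all 22626 probe sets (0.53%). Other probe sets existed for 14 of the 20 genes; of these 29, 24 had the same sign and 2 reached an unadjusted p under 0.05, those of Psme4 (-0.16) and Ppp2r1a (0.15). None of the 20 passed in WT cells in the same fit. The WT change had the Kin- sign for 15 of the 20, and for 11387 of all 22626 probe sets. The Kin- change differed from the WT change for 2310039H08Rik (0.78, limma adjusted p = 0.026) and Psme4 (-0.54, limma adjusted p = 0.00868), the only 2 of the 20 to pass that test. Over the alternatives run on the square root scale, the lowest adjusted p of any of the 20 was 0.147, for Doc2b. Across the 22626 probe sets the change in arrays 1 to 14 and that in arrays 16 to 47, which share no array, had a Pearson r of -0.054 and the same sign for 43.2%, as a description across probe sets.

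The transcripts that answer the analog in WT cells were then read in Kin- cells. Of 20 such genes, chosen with their WT response known, 0 passed in Kin- cells (0%), 2 had an unadjusted p under 0.05, and every 95% interval lay within 1 unit of 0 (19 of 20 without array 14, where that of Fos reached -1.07). Leaving out array 14 also gave 2 of the 20 at a limma unadjusted p under 0.05, both lower with the analog. Crem, a CREB family member whose short products repress CRE-driven transcription, had levels of 3.57, 4.24 and 4.68 (lowest, median and highest) in the 9 Kin- analog arrays, against 3.82, 4.12, 4.10 and 4.59 in Kin- 0 h arrays. In WT cells it lay between 8.88 and 10.97 with the analog, against 4.08 to 4.20 at 0 h. The Kin- groups overlapped and the WT groups were far apart. The Kin- change was -0.06 (95% interval -0.41 to 0.30) and the WT change 5.80.

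Sgip1, an endocytic adaptor, had 3.44 to 3.61 in 8 of the Kin- analog arrays and 4.60 in array 43, against 3.48, 3.47, 3.55 and 3.54 in Kin- 0 h arrays. In WT cells it had 10.29 to 12.64 with the analog, against 3.52 to 4.65 at 0 h. The Kin- change was 0.08 (95% interval -0.30 to 0.47) and the WT change 7.42. Rgs2, which limits G protein signalling, had 3.13, 4.42 and 5.15 (lowest, median and highest) in the 9 Kin- analog arrays, against 3.54, 4.12, 4.85 and 4.62 in Kin- 0 h arrays. Arrays 5 to 8 were the lowest with and without the analog. Its Kin- change of -0.34 (-0.68 to 0.01; limma unadjusted p = 0.0551) was the lowest of the 20, against 4.86 in WT cells. Without array 14 it was -0.19 (limma unadjusted p = 0.222), and the 20 estimates then lay between -0.45 (Fos) and 0.23 (Tnfrsf18).

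Among other genes higher in WT, the receptor partner Ramp3 gave -0.32 in Kin- cells and 5.45 in WT cells, the Wnt inhibitor Wif1 -0.30 and 4.94, the MAP kinase phosphatase Dusp1 -0.04 and 3.34, the repressor Nfil3 -0.11 and 3.42, and the immediate-early Fos -0.30 and 4.17. The death gene Bcl2l11 (Bim) gave 0.01 in Kin- cells (95% interval -0.23 to 0.25) and 1.93 in WT cells, and the CDK inhibitor Cdkn1b (p27) gave -0.14 (-0.38 to 0.10) in Kin- cells and 1.43 in WT cells. Nr4a1, an orphan nuclear receptor, gave -0.25 in Kin- cells and 2.38 in WT cells, and the clock gene Per1 -0.02 in Kin- cells and 1.11 in WT cells; neither passed in the pooled WT fit (limma adjusted p = 0.0848 and 0.0741). Without array 14 the Kin- changes were -0.43 for Ramp3 (limma unadjusted p = 0.0299, adjusted p = 1), -0.26 for Dusp1, -0.28 for Nfil3, -0.09 for Bcl2l11, -0.08 for Cdkn1b, -0.09 for Nr4a1 and 0.00 for Crem.

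The highest Kin- estimate was that of Tnfrsf18 (GITR), a receptor of activated T cells. It had 5.42, 5.92 and 6.12 (lowest, median and highest) in the 9 Kin- analog arrays, against 5.63, 5.37, 5.43 and 5.89 in Kin- 0 h arrays, with overlap. Its change was 0.30 ± 0.127 (limma unadjusted p = 0.0336, adjusted p = 1), against 4.35 in WT cells, and without array 14 its unadjusted p was 0.116.

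Genes lower in WT were read in the same way, and none passed in Kin- cells. Ptcra, which encodes a chain of the pre-T-cell receptor, had 8.96 to 10.50 in Kin- analog arrays, against 10.39, 10.07, 8.80 and 8.94 in Kin- 0 h arrays, while WT cells had 3.42 to 5.59 with the analog, against 8.75 to 9.74 at 0 h. In Kin- cells the sets of array numbers differed more than analog and 0 h did. The Kin- change was 0.17 (95% interval -0.03 to 0.37) and the WT change -4.51. Rag1, the recombinase of receptor gene rearrangement, had 10.73, 11.06 and 11.16 (lowest, median and highest) with the analog in Kin- cells, against 11.34, 11.35, 11.02 and 11.28 at 0 h, with overlap. Its Kin- change was -0.21 ± 0.0745 (limma unadjusted p = 0.0137, adjusted p = 1), in the direction of the WT change of -4.18. The cytokine gene Il10 gave 0.14 in Kin- cells (-0.14 to 0.43; -0.01 without array 14) and -3.83 in WT cells, and Myc -0.04 in Kin- cells (-0.21 to 0.13) and -2.23 in WT cells. Shmt1, a serine hydroxymethyltransferase, and the cyclins Ccne2 and Ccnd3 gave 0.02, -0.08 and 0.13 in Kin- cells and -2.16, -1.84 and -0.65 in WT cells, where none of these 3 passed after pooling. Without array 14 the Kin- changes of Shmt1 and Ccnd3 were 0.06 and 0.04.

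**Figure D3:**
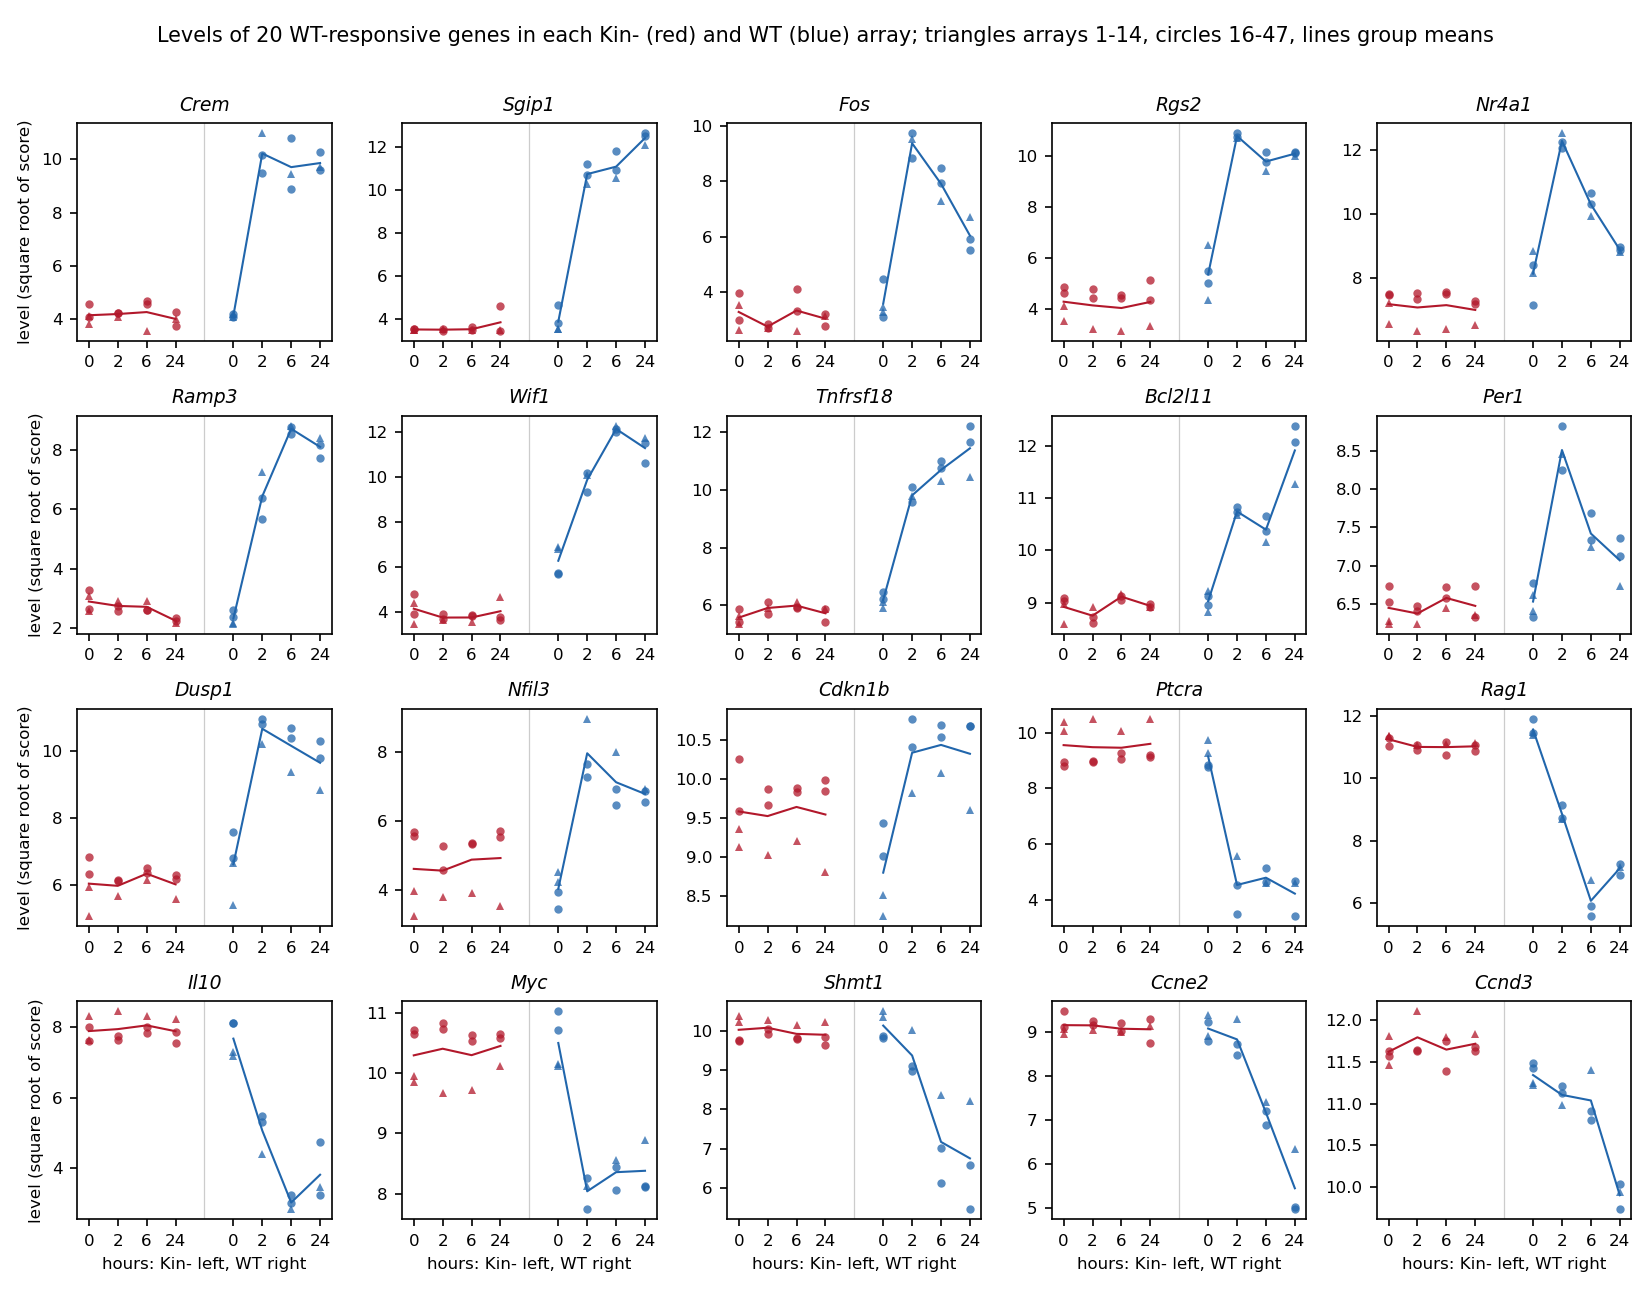
Level (square root of the deposited score, vertical axis) of 20 WT-responsive genes in each array by hours of analog (horizontal axis), Kin- in red on the left and WT in blue on the right; triangles are arrays 1 to 14, circles arrays 16 to 47 and lines join group means. Crem lies at 3.57 to 4.68 in Kin- arrays with the analog, against 8.88 to 10.97 in WT arrays with it.

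The Kin- response differed from the WT response for 16 of the 20 in a direct test, the Kin- minus WT difference fitted over all 26 arrays (limma adjusted p under 0.05; Per1, Shmt1, Ccne2 and Ccnd3 did not pass). Over all probe sets 2156 of 22626 passed this test (9.53%; 4.95% higher and 4.58% lower in Kin-), and 19.8% had an unadjusted p under 0.05 (10.5% higher and 9.38% lower). Since the 20 were chosen for their WT response, that choice is part of the difference. For 20 of 20 the 95% interval of the Kin- change left out the WT estimate, as it did for 9303 of all 22626 probe sets. That reading takes the WT estimate without its error, and it also held for Per1, Shmt1, Ccne2 and Ccnd3. The sign of the WT change was shared by 6 of the 20 Kin- estimates. At single times 0 of the 20 had an unadjusted p under 0.05 at 2 h in Kin- cells, 1 at 6 h (Tnfrsf18, 0.42, unadjusted p = 0.0209) and 1 at 24 h (Ramp3, -0.64, unadjusted p = 0.00309), each with a limma adjusted p of at least 0.997. Ramp3 had 2.19, 2.35 and 2.24 at 24 h in Kin- cells, against 3.10, 2.58, 2.64 and 3.30 at 0 h, in the direction opposite to WT.

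**Figure D4:**
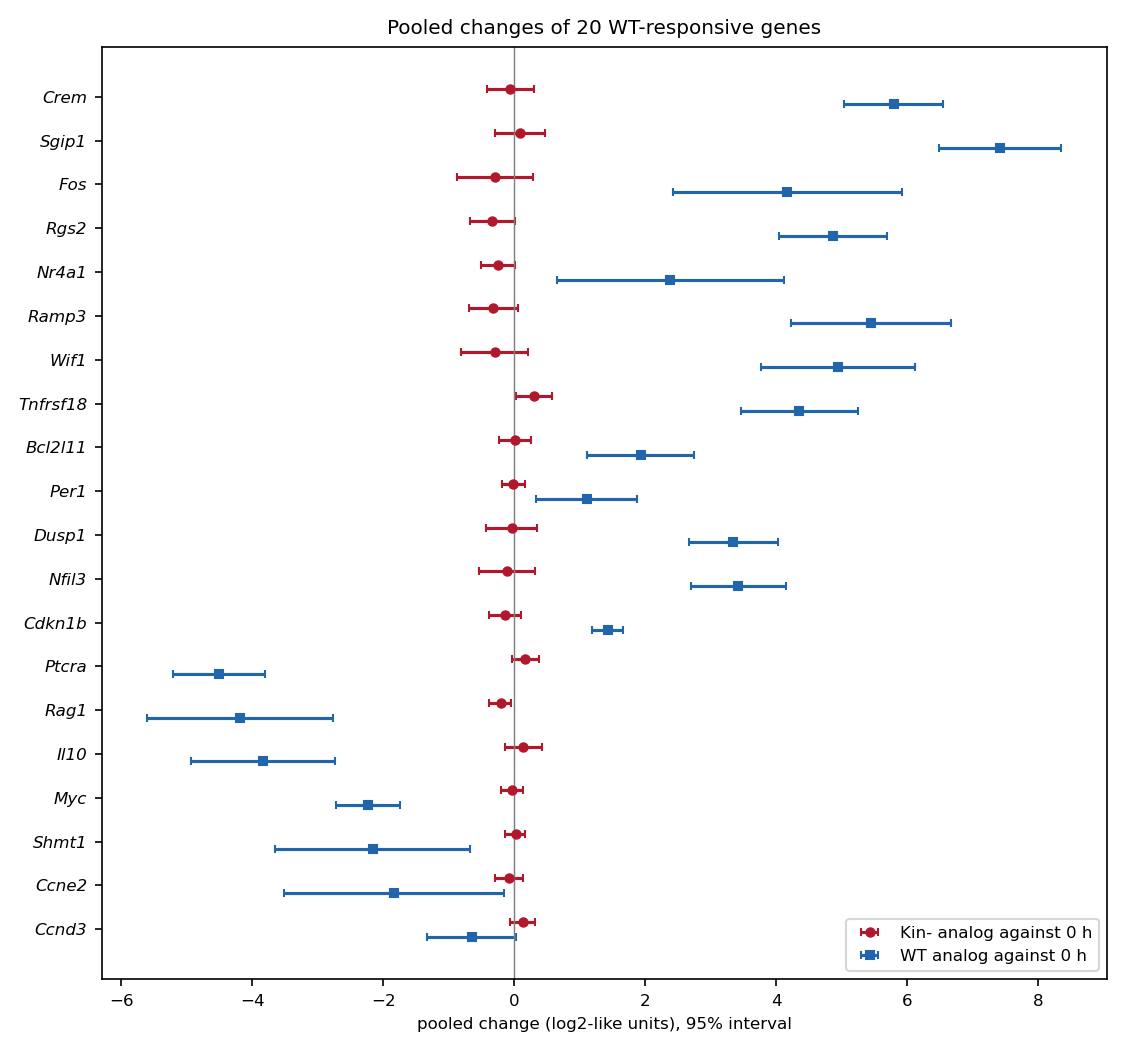
Pooled change of 20 WT-responsive genes in log2-like units (horizontal axis) with 95% intervals, Kin- as red circles and WT as blue squares. All Kin- estimates lie between -0.34 (Rgs2) and 0.30 (Tnfrsf18), while WT estimates reach 7.42 (Sgip1) and -4.51 (Ptcra).

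The same reading was made over every strong WT responder. Of 730 probe sets that passed in WT cells with a change of at least 1 unit, 338 had the same sign in Kin- cells, against 11387 of all 22626. The median Kin- change of the 730 toward the WT direction was -0.012 units. At an unadjusted p under 0.05, 25 of the 730 had the WT sign in Kin- cells and 27 the opposite one, against 508 and 471 of all 22626 probe sets. The 95% interval of the Kin- change left out the WT estimate, taken without its error, for 729 of the 730 and for 9303 of all 22626 probe sets. In the Kin- minus WT test 702 of the 730 passed. The choice on the WT contrast adds to both counts. Across these 730 probe sets the slope of the Kin- on the WT change was -0.01 and Pearson's r -0.109, and over all 22626 r was -0.025; these are descriptions across probe sets, which are not independent, and the lines share no array.

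**Figure D5:**
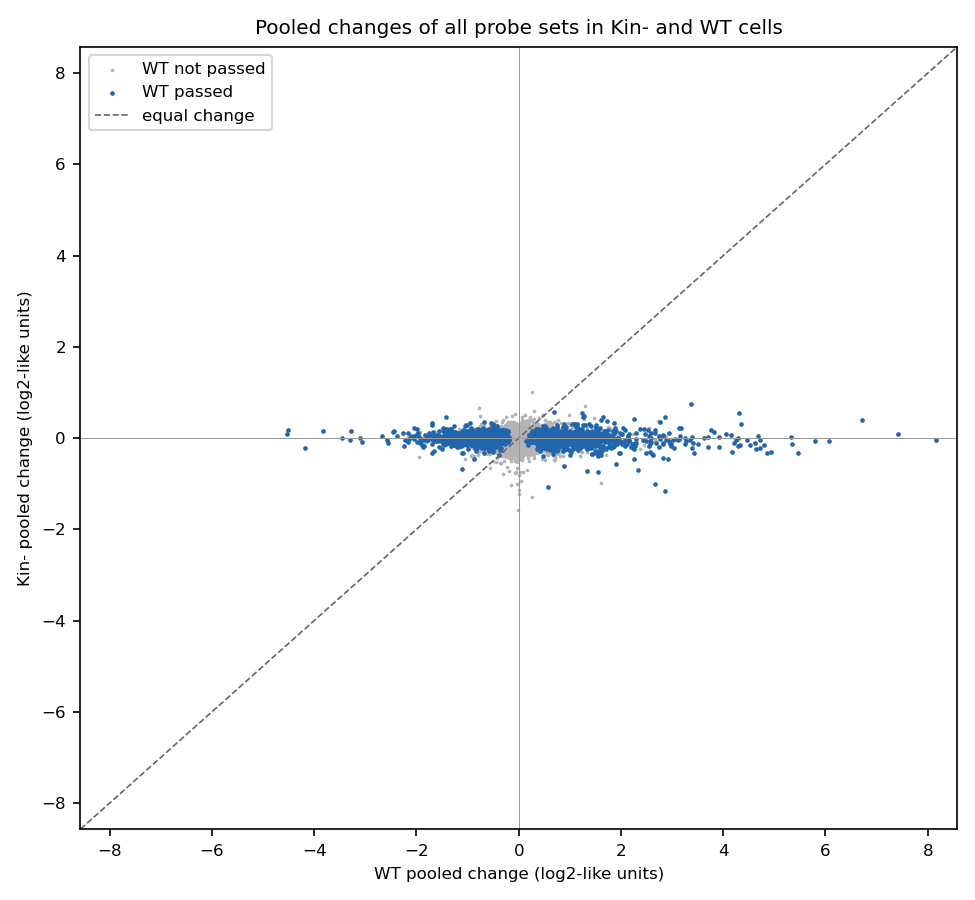
Pooled change of each probe set in Kin- cells (vertical axis) against that in WT cells (horizontal axis), both in log2-like units on the same range; blue points passed in WT cells, grey points did not, and the dashed line marks equal changes. Blue points spread along the horizontal axis, with WT changes of at least 1 unit for 730 that passed. Of these 730, 10 have a Kin- change of at least 0.5 units in size and 2 of at least 1 unit, both probe sets of Dppa2, whose value rests on array 14.

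None of the PKA genes themselves passed in Kin- cells. Of 19 genes for PKA subunits, inhibitors and anchors 15 were measured; 0 passed, 0 had an unadjusted p under 0.05, against 4.33% of all probe sets, and the median change was -0.065, against -0.009 over all named genes. Prkaca, the main catalytic subunit, had 8.54, 8.71 and 9.04 (lowest, median and highest) in Kin- analog arrays, against 8.59, 8.52, 8.83 and 8.55 in Kin- 0 h arrays, and 8.75 to 8.95 in WT 0 h arrays. Transcript level on an array says nothing of kinase activity. Its change was 0.08 (95% interval -0.09 to 0.26) in Kin- cells, and that of Prkacb, the second catalytic subunit, 0.17 (0.00 to 0.35). Array 14 had the lowest Prkacb level of the 0 h arrays, 8.17, and without it the change was 0.07 (-0.05 to 0.18). Prkar1a, the type I regulatory subunit that holds the kinase inactive, had 10.45 to 10.85 with the analog in Kin- cells, against 10.56, 10.68, 10.77 and 10.78 at 0 h, while WT cells had 11.62 to 12.48 with the analog, against 10.88 to 10.97 at 0 h. Its Kin- change was -0.09 (-0.21 to 0.04) and its WT change 1.01 (limma adjusted p = 0.000807). Prkx, a PKA-related kinase, gave -0.01 (-0.12 to 0.09) in Kin- cells and 1.07 in WT cells, and both genes passed the Kin- minus WT test (limma adjusted p = 4.08e-05 and 5.03e-06).

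Of 24 Epac and Rap pathway genes 17 were measured; 0 passed in Kin- cells, 0 were higher at an unadjusted p under 0.05 and 3 were lower, against 2.4% of all probe sets lower at that p. Rapgef3, which encodes Epac1, had 9.36, 9.58 and 9.89 (lowest, median and highest) in Kin- analog arrays, against 9.56, 10.03, 9.47 and 9.33 in Kin- 0 h arrays, with overlap and a change of 0.04 (95% interval -0.19 to 0.26), or 0.14 (-0.05 to 0.34) without array 14. The 3 lower were Rapgef6, a Rap exchange factor not gated by cAMP, Apbb1ip, a Rap1 effector that links integrins to the membrane (RIAM), and the GTPase Rap1a. Rapgef6 had 6.56 to 6.96 with the analog, against 6.95, 7.03, 7.21 and 6.95 at 0 h, overlapping narrowly, and a change of -0.23 ± 0.0737 (limma unadjusted p = 0.00844). Apbb1ip gave -0.24 ± 0.0812 and Rap1a -0.10 ± 0.0436. Without array 14, 2 of the 17 genes were lower at an unadjusted p under 0.05, and that of Rap1a was 0.109 (limma). All 17 intervals lay within 0.5 units of 0, which bounds a response of these genes' own transcripts and not the activity of Epac.

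Genes for other proteins that bind, make or break down cyclic nucleotides followed. Of 11 measured genes for cyclic nucleotide channels, Popeye proteins and cyclic GMP kinases, 0 passed and 1 had an unadjusted p under 0.05, the channel subunit Cngb1 (-0.19). Without array 14, 0 of the 11 did. Of 24 for adenylyl cyclases, G protein subunits, phosphodiesterases and export, 0 passed and 0 had an unadjusted p under 0.05. Pde4b and Pde10a, phosphodiesterases that degrade cAMP, gave 0.02 and -0.15 in Kin- cells and 1.39 and 1.20 in WT cells, where both passed. Purine, adenosine and nucleoside handling had 25 measured genes with 0 passed and 0 at an unadjusted p under 0.05, between -0.17 (Ampd2) and 0.19 (Ampd3; 0.12 without array 14).

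CREB and immediate-early targets were measured for 42 of 46 genes. In Kin- cells 0 passed and 0 had an unadjusted p under 0.05, with a median change of -0.054, a range of -0.34 (Rgs2) to 0.11 (Dusp2), and all 42 intervals within 1 unit of 0; in WT cells 13 of the 42 passed, all higher, against 5.12% higher and 5.53% lower of all probe sets. Without array 14, 1 of the 42 had an unadjusted p under 0.05 in Kin- cells (Klf2, 0.24), and 41 intervals lay within 1 unit. The stress gene Gadd45a gave -0.04 (95% interval -0.25 to 0.17) in Kin- cells and 3.01 in WT cells, the kinase Sgk1 -0.13 (-0.36 to 0.11) and 2.24, the antiproliferative Btg1 -0.07 (-0.23 to 0.09) and 1.46, the AP-1 gene Junb 0.00 (-0.27 to 0.26) and 1.62, and Sik1, a kinase that feeds back on CREB coactivators, -0.13 (-0.30 to 0.04) and 0.90. Egr1, Egr3 and Atf3 averaged levels of 2.31, 1.96 and 2.27 in Kin- cells, near the low end of the scale, where a level may be background.

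Promoters of these genes were searched on both strands for the CRE, whose full palindrome is TGACGTCA, in windows of 300 bases (250 before and 50 after the transcription start) from RefSeq. Of 55 genes from the WT-responsive and CREB lists 43 had a window, and 3 of them held the full site, which 2.99% of all measured genes with a window hold and 1.79% of all 32851 windows. The stretch around each site is printed 5′ to 3′ on the gene's strand, in GRCm38.p6 coordinates, with the CRE in capitals, because these genes carry the element of the PKA branch itself. It lies at chr17:26508568-26508655 on the minus strand for Dusp1, at chr1:134079274-134079361 on the minus strand for Btg2 and at chr15:79347451-79347538 on the plus strand for Maff, with the site at -143, -166 and -29 bases from the start.
Dusp1: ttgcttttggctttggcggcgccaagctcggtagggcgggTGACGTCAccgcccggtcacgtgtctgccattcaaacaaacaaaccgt
Btg2: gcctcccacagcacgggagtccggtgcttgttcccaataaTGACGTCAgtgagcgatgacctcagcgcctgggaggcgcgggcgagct
Maff: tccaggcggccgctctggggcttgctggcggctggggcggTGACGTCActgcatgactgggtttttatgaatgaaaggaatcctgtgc
Dusp1 had 5.59, 6.16 and 6.51 (lowest, median and highest) in Kin- analog arrays, against 5.96, 5.08, 6.33 and 6.85 in Kin- 0 h arrays, with overlap, and a change of -0.04 in Kin- cells and 3.34 in WT cells (limma adjusted p = 4.59e-05). Btg2, an antiproliferative factor, gave -0.07 (95% interval -0.32 to 0.17) in Kin- cells and 1.20 in WT cells (limma adjusted p = 0.0732). Maff, a small Maf transcription factor, gave 0.04 (-0.09 to 0.17) in Kin- cells and 1.02 in WT cells (limma adjusted p = 0.579).

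All measured genes were also grouped by this motif, after the data were seen. Of 9887 measured genes with a window, 296 held the full site, 2812 only the shorter TGACG or CGTCA, which the full site also contains, and 6779 neither. At an unadjusted p under 0.05 in Kin- cells were 5.41% of the genes with the full site, 5.01% with the shorter one only and 4.72% with neither, against 4.82% of all, and 0 passed in each class; the median Kin- changes were -0.008, -0.007 and -0.009. In WT cells 15.9%, 16.1% and 10.6% of the 3 classes passed, against 12.3% of all. A match is a description of letters and not of a bound site.

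Over all 29 gene lists read, 683 different genes were measured, of which 0 passed in Kin- cells, and 11 were higher and 22 lower at an unadjusted p under 0.05, together 4.83%, against 4.73% of all 12393 named genes. In 11 of the 29 lists no member had an unadjusted p under 0.05, and the list medians lay between -0.065 and 0.035 units. Precision differed between lists. Of the 28 measured glycolysis and hypoxia response genes, 18 intervals lay within 0.5 units of 0 and 25 within 1 unit. These counts were 15 and 23 without array 14. In WT cells 113 of the same 683 passed (16.5%), against 11.9% of all named genes. Without array 14, 0 of the 683 passed in Kin- cells and 25 had an unadjusted p under 0.05, of which 16 were among the 33 with it.

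No cell cycle gene passed. Of 43 measured mitosis genes 0 passed in Kin- cells. At an unadjusted p under 0.05, Pttg1, which restrains separase, and the spindle checkpoint kinase Ttk were higher (0.14 and 0.18). Anln, Aurkb, Kif23 and Top2a, which act in cytokinesis and chromosome segregation, were lower at that p (-0.23, -0.20, -0.14 and -0.14). Of all probe sets 1.93% were higher and 2.4% lower. Without array 14 the limma unadjusted p was 0.0877 for Ttk and 0.0598 for Kif23. Of 42 DNA replication genes 1 had an unadjusted p under 0.05, the helicase subunit Mcm3 (-0.11), and 41 of the 42 intervals lay within 0.5 units of 0. Of 26 G1 and Rb/E2F genes the kinase Cdk6 (-0.50 ± 0.187) and Rbl1 (-0.14) reached that p, and 0 did without array 14. Cdk6 had the lowest estimate of its list in Kin- cells, -0.32 without array 14, and the WT estimate was -0.51, also not passed. Of 42 Myc family and ribosome biogenesis genes 0 passed in Kin- cells, with a median of -0.031, against 1 higher and 18 lower among those that passed in WT cells (5.12% and 5.53% of all probe sets), with a median of -0.848. Rrp1b, a nucleolar protein of that list, gave -0.11 ± 0.0365 in Kin- cells and -1.14 in WT cells (limma adjusted p of the difference = 2.75e-05).

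No death or stress gene passed in Kin- cells either. Of 30 measured BCL2 family, caspase and death receptor genes 0 passed, 0 had an unadjusted p under 0.05, and 29 intervals lay within 0.5 units of 0, all but that of Casp1, whose value rested on array 14; without that array 28 did. Of 18 p53 targets only Zmat3 (0.19) had an unadjusted p under 0.05, and 0 did without array 14. Ddit3 (CHOP), a factor of the unfolded protein and amino acid responses, gave 0.29 ± 0.125 (limma unadjusted p = 0.0365, or 0.108 without array 14). Sel1l, which acts in the degradation of endoplasmic reticulum proteins, gave 0.25 ± 0.102. Among 32 interferon response genes Irf1 gave -0.15 ± 0.0485 in Kin- cells (limma unadjusted p = 0.0106) and 1.57 in WT cells, where it passed (limma adjusted p = 0.0201). Among 32 NF-kB and T-cell activation genes, which include Tnfrsf18, Fasl, a death ligand, gave -0.25 ± 0.0774 and Rel, an NF-kB subunit, 0.09 ± 0.0402. Of 47 oxidative phosphorylation genes 3 were higher (Atp5j, Uqcrb and Cox8a, at 0.16, 0.12 and 0.16) and 1 lower (Ndufab1, -0.10) at an unadjusted p under 0.05. Of all probe sets 1.93% were higher and 2.4% lower at that p. Without array 14, 0 of the 47 were higher and 1 lower. All 47 intervals lay within 0.5 units of 0.

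Markers of T-lymphoid cells had mean Kin- levels of 12.44 for Cd3d, a T-cell receptor complex subunit, 12.71 for the surface protein Thy1, 12.09 for the adaptor Lat and 3.22 for Cd5. Levels of different probe sets share no scale and there are no detection calls, so these values describe the arrays and do not test the label. Of 37 T-lineage genes 0 passed in Kin- cells. Rag1, Tcf12 (-0.12) and Runx1 (-0.10), the last 2 regulators of early T cells, were lower at an unadjusted p under 0.05, against 2.4% of all probe sets. Without array 14, 1 of the 37 was higher and 1 lower at that p. In WT cells 4 were higher and 7 lower among those that passed (5.12% and 5.53% of all probe sets). Of 9 B-lymphoid, 11 myeloid and 5 erythroid markers measured, 0 had an unadjusted p under 0.05 in Kin- cells. Of 10 measured fibroblast markers, which include Thy1, 0 reached that p; the lowest estimate was that of the growth factor receptor Pdgfrb (-0.98, limma unadjusted p = 0.098), which was -0.15 without array 14.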

How the data were processed

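Total RNA of WT and Kin- S49 cells was measured on 26 arrays. The authors deposited 1 table of processed scores with a column per array; how these deposited scores were normalized, and on what scale, is not given in the sources used here. Scores ran from 0.375 to 267. Their square root was taken as a log2-like level, an assumption, and no further normalization was applied. The number of arrays limits precision.

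Groups and array numbers came from the labels. Arrays numbered 1 to 14 and 16 to 47 differ as sets and entered as a fixed term; each comparison holds both. Models were fitted to all 22626 probe sets with limma 3.58.1 (lmFit, eBayes) in R 4.3.3: pooled analog against 0 h in each line, each time and an F test among times in Kin- cells, and the Kin- minus WT difference over 26 arrays, with Benjamini-Hochberg adjustment and 95% intervals. The fit was tested on simulated data.

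Of the probe sets 20380 had 1 gene symbol, 691 several and 1555 none in the platform annotation; 20351 were matched to RefSeq by gene ID. Named were the 10 genes of smallest p in each direction where fewer passed and a panel of 20 WT-responsive genes. Members of the PKA, Epac and CREB lists were also named. Of the other lists members were named for some only, often those of smallest p. Each gene was read by its brightest probe set, except the 10 of smallest p in each direction. Others are said to have been singled out after values were seen. The members and all lists were chosen with earlier results of these data known. Alternatives covered the scale, the array-number term, array series as a block, normalization, weights, filters and each array left out; series blocks, the genes without array 14 and single array sets for comparisons other than the pooled Kin- one, and the promoter grouping, were added after the data were seen.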

Additional observations from a re-analysis of the deposited data

Results flagged for a closer look

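Among 40 genes read in 2 groups of Kin- arrays (80 groups tested), 4 groups held an array far from the others by Dixon's criterion, and chance marks about 1 in 20 groups. Creb3 had 7.60 in array 46 (6 h), against 7.68 to 7.72 in the other 8 analog arrays; the 0 h arrays lay lower still. Sgip1 had 4.60 in array 43 (24 h), against 3.44 to 3.61. Fos had 4.11 in array 42 (6 h), against 2.61 to 3.32. Wif1 had 4.68 in array 8 (24 h), against 3.56 to 3.92. All 4 lie in different arrays.

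The response differed between Kin- and WT cells by limma's test of the difference itself for 16 of the 20 WT-responsive genes, chosen with their WT response known. Kin- minus WT was -5.85 for Crem (9.95e-10), -7.33 for Sgip1 (6.1e-10), -4.47 for Fos (0.00136), -5.20 for Rgs2 (1.73e-08), -2.63 for Nr4a1 (0.0452), -5.77 for Ramp3 (7.88e-07), -5.24 for Wif1 (3.4e-06), -4.05 for Tnfrsf18 (1.37e-06), -1.92 for Bcl2l11 (0.00269), -3.39 for Dusp1 (1.5e-06), -3.53 for Nfil3 (2.09e-06) and -1.57 for Cdkn1b (5.98e-07), where the WT estimate was positive (limma adjusted p in parentheses). It was 4.68 for Ptcra (3.75e-09), 3.97 for Rag1 (0.00032), 3.98 for Il10 (2.05e-05) and 2.19 for Myc (1.56e-06), where the WT estimate was negative.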

How the results depend on the processing

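The pooled Kin- count stayed at 0 under all 28 alternatives: power 0.75, untransformed and log2 values, no array-number term, each array set alone, array series as a block, all 26 arrays in the fit, only the brighter probe sets, quantile normalization, array weights, trended robust moderation, each time left out and each of 13 arrays left out. At an unadjusted p under 0.05 these gave 567 to 1429 probe sets, and the smallest adjusted p was 0.147. The 20 genes of smallest p kept their sign under every alternative run and never passed. They were chosen on this contrast and the alternatives reuse its arrays, so the kept sign is largely given by that choice. The labels give no pairing of arrays; with consecutive array numbers as a replicate block the pooled Kin- count was 0, with 989 at an unadjusted p under 0.05, that of WT was 1433 and that of Kin- minus WT 1396. Arrays 16 to 47 alone gave 698 in WT and 804 for Kin- minus WT, and arrays 1 to 14 alone 4 (Irf8, Jade1, Tex2 and Slc37a3) and 197; the smaller counts come with fewer arrays. Leaving out 1 array at a time gave 0 for the Kin- counts pooled, at 2 h and at 6 h, 0 to 1 at 24 h and 0 to 1 among times (Fbxo2 without array 8), 1311 to 2687 in WT and 1558 to 2625 for Kin- minus WT. With arrays 1 to 14 alone, where arrays 5 and 14 give the only residual degree of freedom, 0 passed at 2, 6 and 24 h and among times, with 1282 to 1550 at an unadjusted p under 0.05. The WT-responsive genes had no call in Kin- cells under any alternative run; other scales change the unit of their change.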

Other observations

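Kin- arrays differed among themselves by several units at some genes. Bex1 had 2.40 to 2.63 in arrays 5 to 8, 5.23 to 6.60 in arrays 40 to 47 and 10.2 in array 14, against 2.42 to 2.72 in the WT analog arrays and 2.53 to 2.58 in the WT 0 h arrays. Casp1 had 9.01 to 9.38 in arrays 5 to 8, 4.70 to 6.43 in arrays 40 to 47 and 4.43 in array 14, against 3.15 to 3.81 in all WT arrays. Dppa2 had 2.65 to 3.92 in arrays 5 to 8, 7.11 to 7.58 in arrays 40 to 47 and 8.33 in array 14, and WT had 9.86 to 11.76 with the analog and 6.83 to 9.04 at 0 h. Each of these 3 genes was singled out after its values were seen, and no cause of the differences between Kin- arrays was tested.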
